A study of Mus musculus with 9 samples.

Results

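The genes described here are the 9 immunoglobulin constant region genes Ighm, Ighd, Ighg3, Ighg1, Ighg2b, Ighg2c, Igha, Igkc and Iglc1, together with Jchain, measured by bulk RNA-seq in sorted mouse hematopoietic stem cells (HSCs). They are 10 of the 56748 genes counted, and the 9 constant genes are among 13 rows of that kind. They were picked out by gene name from the count file, with their levels in these same libraries already known. The levels and fold changes of the 10 genes between groups were therefore used in choosing them and are given as a description. How each library's antibody counts divide among isotypes and light chains, and the genes of the surrounding pathway, were not the rule of that choice. The shares are ratios of those same counts, however, and shares and lists were set with earlier results of these data known. Their tests are therefore not independent of the choice. Calls of the 10 genes in the fits over all genes are printed beside the share of all genes called, and nothing is read from them.

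HSCs were sorted from the bone marrow of female C57BL/6 mice as lineage-negative Sca1+ c-Kit+ CD48- CD150+ cells, and the lineage antibodies listed by the study include B220, which binds B cells. No allele or drug distinguished the groups. Young HSCs (yHSCs) came from mice of 6 to 10 weeks. Pre-aged HSCs (paHSCs) came from mice of 14 to 16 months and were divided by surface P-selectin into the Selp_low and Selp_high fractions, called Selp-low and Selp-high paHSCs here. Each of the 3 groups had 3 libraries, and no source used here gives the numbers of cells and mice behind a library. The study describes the libraries of a group as biological repeats, and neither it nor the labels say which animals each came from, so any p-value measures only the spread between these libraries.

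An antibody is built of identical heavy chains paired with identical light chains, and the constant gene joined to a rearranged heavy chain variable region sets its class. Naive B cells make IgM and IgD from Ighm and Ighd by alternative splicing. After class switch recombination a B cell or plasma cell uses Ighg1, Ighg2b, Ighg2c, Ighg3, Ighe or Igha instead. C57BL/6 mice carry Ighg2c in the place of Ighg2a. The light chain is kappa (Igkc) or lambda (Iglc1, Iglc2 and Iglc3), and kappa predominates in mice. J chain, made by antibody-secreting cells, joins IgM pentamers and IgA dimers. HSCs are not known to rearrange or secrete antibody, while bone marrow holds naive B cells, their precursors and long-lived plasma cells.

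Depth ranged from 24866975 to 35375310 counts per library. Levels are given as CPM, read counts scaled to a common library total and then by TMM factors (edgeR's correction for differences in composition), which ran from 1.05 to 1.22 in 7 libraries and were 0.545 in Selp-low paHSC 2 and 0.785 in Selp-low paHSC 3. Selp, the gene of P-selectin, stood at 264 to 652 CPM in Selp-high paHSCs and 29.3 to 109 CPM in Selp-low paHSCs, without overlap, and at 20.5, 23.2 and 30.02 CPM in yHSCs, so that Selp-low paHSC 2 lay within the yHSC range. All 10 HSC markers examined had counts in all 9 libraries. Their summed level was lowest in Selp-low paHSC 3, at 819 CPM, and highest in Selp-high paHSC 1, at 3121 CPM. Markers of other cells stood apart in some libraries. The 10 neutrophil markers, none at 0 in any library, summed to 543 to 212759 CPM in Selp-low paHSCs, lowest in library 2 and highest in library 3, to 1669 to 41968 CPM in Selp-high paHSCs and to 12936 to 64856 CPM in yHSCs.

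In mm39, the build named in the submitters' processing notes, the 7 heavy chain genes lie together on the minus strand of chromosome 12. Ighm is at chr12:113382178-113386350 and Igha, at the far end, is at chr12:113218450-113223856. Ighd (113370224-113379944), Ighg3 (113319844-113324852), Ighg1 (113288860-113294143), Ighg2b (113266585-113271553) and Ighg2c (113248945-113252552) lie between them, in the order in which they follow the variable genes. Igkc is at chr6:70703419-70703950, Iglc1 at chr16:18880368-18880821 and Jchain, a protein-coding gene outside these loci, at chr5:88667668-88675750. Counts are of whole genes, so exons of the secreted and membrane forms were not told apart.

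The isotype shares below depend on reads being assigned to the right member of a family of similar genes, so the opening bases of the secreted IgG transcripts are shown. Each run starts at base 1 of the transcript and is 90 bases long. It is taken from GENCODE M21, a reference of an earlier build used here by transcript name only. Capitals mark bases that differ from Ighg2b.
Ighg2b: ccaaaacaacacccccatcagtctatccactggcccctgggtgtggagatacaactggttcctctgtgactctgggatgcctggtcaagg
Ighg2c: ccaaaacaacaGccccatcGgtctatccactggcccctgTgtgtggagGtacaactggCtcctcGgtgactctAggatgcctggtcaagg
Ighg1: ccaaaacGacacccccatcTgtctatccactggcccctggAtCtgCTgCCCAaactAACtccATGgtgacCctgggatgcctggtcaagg
Ighg3: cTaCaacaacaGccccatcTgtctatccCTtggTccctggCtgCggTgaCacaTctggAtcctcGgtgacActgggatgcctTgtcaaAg
Ighg2c differed from Ighg2b at 7 of the 90 bases, and Ighg1 and Ighg3 at 17 each. Over the whole transcripts Ighg2b and Ighg2c were 86.4% identical, with a longest shared run of 78 bases, and the other IgG pairs were 74.7% to 77.0% identical, with shared runs of at most 41 bases. No source used here says how the counting treated reads that match several genes, so counts of these genes in libraries where another IgG gene is far more abundant are uncertain.

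The lambda genes are shown for the same purpose, since Iglc1 is the lambda gene among the 10 and Iglc2 and Iglc3 are not. Capitals mark differences from Iglc1, and the Iglc2 run starts at base 2 of its transcript, where it aligns.
Iglc1: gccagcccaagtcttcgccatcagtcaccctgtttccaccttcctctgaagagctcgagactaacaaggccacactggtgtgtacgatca
Iglc2: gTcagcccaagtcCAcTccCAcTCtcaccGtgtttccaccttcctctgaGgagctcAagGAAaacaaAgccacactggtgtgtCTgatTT
Iglc3: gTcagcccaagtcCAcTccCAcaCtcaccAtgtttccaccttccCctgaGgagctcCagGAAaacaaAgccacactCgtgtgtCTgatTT
Iglc1 shared 68.4% of aligned bases with Iglc2 and 70.3% with Iglc3, in runs of at most 19 bases. Iglc2 and Iglc3 were 95.4% identical, so the division of counts between those genes is uncertain.

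The 10 genes together took between 0.0535% and 33.3% of all counts of a library. In yHSC 1, 2 and 3 they took 0.0855%, 0.0535% and 0.131%. In Selp-low paHSCs the values were 1.96%, 33.3% and 0.0829%, so libraries 1 and 2 stood above the range of yHSCs and library 3 lay within it. In Selp-high paHSCs they were 0.282%, 3.29% and 1.14%, all above every yHSC library. The ranges of the 2 paHSC fractions overlapped, and the range within Selp-low paHSCs was wider than any difference between group medians (0.0855%, 1.96% and 1.14%). In bulk RNA a smaller number of cells of a type and less RNA per cell cannot be told apart, which holds for each level below.

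**Figure D1:**
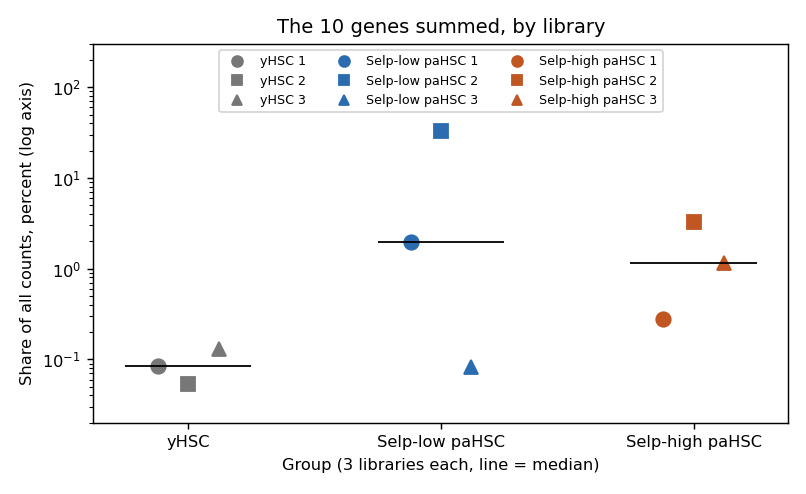
Summed counts of the 10 genes as a percent of all counts (log axis) in each library, grouped by yHSCs, Selp-low and Selp-high paHSCs, with a line at each group's median. Selp-low paHSC 2 stands at 33.3% and Selp-low paHSC 3 at 0.0829%, within the yHSC range of 0.0535% to 0.131%.

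Ighm, the constant gene of IgM, was counted in every library and was the most abundant heavy chain gene by counts in 8 of the 9. Its level was 314, 305 and 785 CPM in yHSCs, 3939, 162687 and 461 CPM in Selp-low paHSCs, and 1134, 8326 and 1782 CPM in Selp-high paHSCs. Every Selp-high library lay above every yHSC library, and Selp-low paHSC 3 lay among the yHSCs. Ighd, which is spliced from the same primary transcript as Ighm in mature naive B cells, had another order. It measured 7.65, 48.3 and 34.0 CPM in yHSCs, 1160, 1169 and 1.01 CPM in Selp-low paHSCs, and 30.4, 53.1 and 1.75 CPM in Selp-high paHSCs. Ighd was thus high in Selp-low paHSC 1 and 2 alone, and the Selp-high and yHSC ranges overlapped. Set against Ighm, Ighd reached 29.5 counts per 100 Ighm counts in Selp-low paHSC 1 and 15.9 in yHSC 2, but 0.719 in Selp-low paHSC 2, 0.638 in Selp-high paHSC 2, 0.219 in Selp-low paHSC 3 and 0.0980 in Selp-high paHSC 3. The libraries with the most Ighm were therefore not those with the most Ighd per Ighm.

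The switched IgG genes each peaked in particular libraries. Ighg2b, the constant gene of IgG2b, stood at 1.18, 0.394 and 2.79 CPM in yHSCs, 50.4, 6457 and 47.2 CPM in Selp-low paHSCs, and 2.22, 398 and 2.43 CPM in Selp-high paHSCs. All Selp-low libraries lay above all yHSC libraries, and among Selp-high paHSCs only library 2 did. Ighg2c, of IgG2c, stood at 53.3, 0.487 and 1.15 CPM in yHSCs, 64.2, 2116 and 1.69 CPM in Selp-low paHSCs, and 0.517, 3.77 and 2393 CPM in Selp-high paHSCs. Selp-high paHSC 3 and Selp-low paHSC 2 were far above the other libraries, and the 3 groups overlapped.

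Ighg1, of IgG1, measured 1.12, 0.232 and 0.328 CPM in yHSCs, and 12.1, 146 and 67.2 CPM in Selp-low paHSCs. In Selp-high paHSCs it had 0 counts in library 1, which allows up to 0.0848 CPM before TMM scaling, 0.345 CPM in library 2 and 1346 CPM in library 3. The Selp-high libraries thus held both the lowest and the highest Ighg1 level. Ighg3, of IgG3, had the lowest mean level of the 10 in each of the 3 groups but was not the lowest member of any Selp-high library. It had 5, 0 and 2 counts in yHSCs and 2 in Selp-low paHSC 3, 5.28 and 53.2 CPM in Selp-low paHSC 1 and 2, and 1.52, 4.04 and 4.47 CPM in Selp-high paHSCs, where all 3 libraries lay above all yHSC libraries.

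Igha, the constant gene of IgA, the class of mucosal secretions, stood at 5.45, 0.649 and 0.574 CPM in yHSCs. In Selp-low paHSCs it reached 276, 61658 and 17.2 CPM, all above the yHSCs. In Selp-high paHSCs it was 5.27 CPM in library 1, within the yHSC range, and 4308 and 1489 CPM in libraries 2 and 3.

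Igkc, the kappa constant gene, was the most abundant member by counts in 5 of the 6 paHSC libraries. It measured 168, 76.2 and 336 CPM in yHSCs, 12027, 188048 and 395 CPM in Selp-low paHSCs, and 1236, 8905 and 3379 CPM in Selp-high paHSCs. Every paHSC library lay above every yHSC library, Selp-low paHSC 3 by the smallest margin. Iglc1, the lambda 1 constant gene, did not separate the groups, at 102, 4.47 and 3.77 CPM in yHSCs, 282, 91265 and 38.3 CPM in Selp-low paHSCs and 10.9, 2430 and 5.99 CPM in Selp-high paHSCs. Per kilobase of gene length, Igkc exceeded Iglc1 in all 9 libraries, at 353474 against 201024 CPM per kilobase in Selp-low paHSC 2 and 6351 against 13.2 in Selp-high paHSC 3.

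Jchain stood at 66.7, 1.88 and 48.9 CPM in yHSCs, 247, 98263 and 27.4 CPM in Selp-low paHSCs, and 154, 3189 and 473 CPM in Selp-high paHSCs. All Selp-high libraries were above all yHSC libraries, and Selp-low paHSC 3 was not. For 100 heavy chain counts, there were 41.9 Jchain counts in Selp-low paHSC 2, 24.4 in Selp-high paHSC 2, 17.4 in yHSC 1 and 13.1 in Selp-high paHSC 1. The other 5 libraries held 0.529 to 6.74. The 2 paHSC libraries numbered 2 thus had most Jchain both in level and for their heavy chain counts, while yHSC 2 had least by both.

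**Figure D2:**
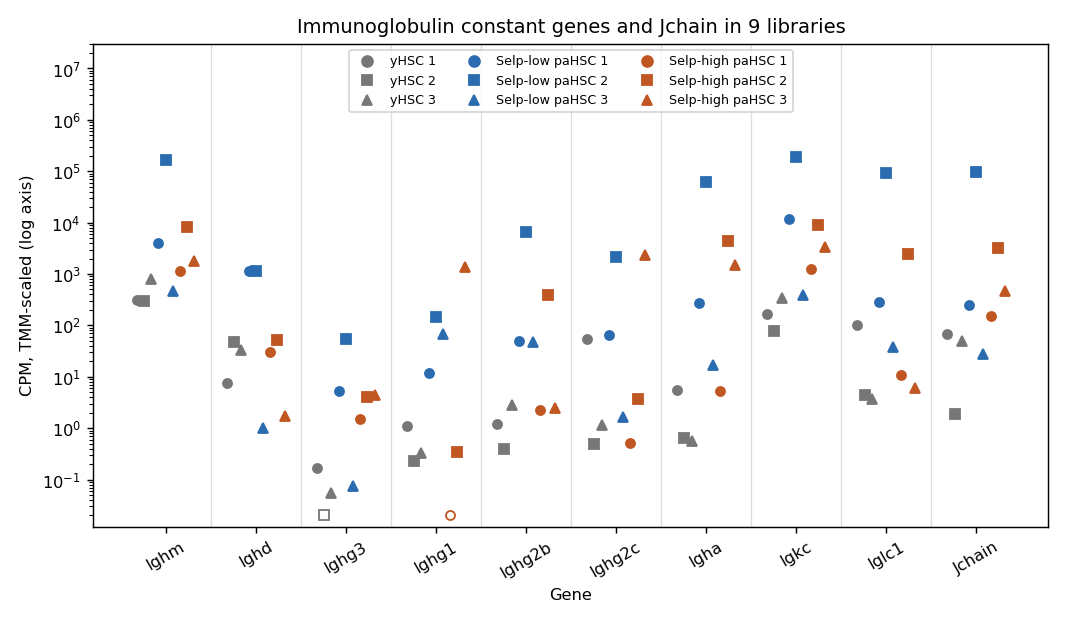
Level of each of the 10 genes in the 9 libraries, in TMM-scaled CPM on a log axis, with grey, blue and orange for yHSCs, Selp-low and Selp-high paHSCs and the marker shape for the replicate number. The 2 open markers at the lower edge are counts of 0 (Ighg3 in yHSC 2, Ighg1 in Selp-high paHSC 1), and Selp-low paHSC 2 is highest for 8 of the 10 genes, the exceptions being Ighg1 and Ighg2c.

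For isotype make-up, a share was taken as each gene's share of the heavy chain counts of a library, which numbered 11321 to 3556426, without scaling by length. Wilson 95% intervals of these shares were at most 0.707 percentage points to either side and cover counting error only, so differences between libraries of several points lie outside it. IgM made up 82.0%, 85.9% and 95.3% in yHSCs, 71.5%, 69.4% and 77.4% in Selp-low paHSCs, and 96.6%, 63.6% and 25.4% in Selp-high paHSCs. IgD took 21.1% in Selp-low paHSC 1 and 13.6% in yHSC 2, and at most 4.12% elsewhere. Every yHSC library was therefore mainly unswitched by counts, with IgM and IgD together at 84.0% to 99.5%.

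IgA took 0.0697% to 1.42% of heavy chain counts in yHSCs. It took 5.02%, 26.3% and 2.89% in Selp-low paHSCs, above every yHSC library, and 0.449%, 32.9% and 21.2% in Selp-high paHSCs. The 4 IgG genes together took 14.6%, 0.314% and 0.525% in yHSCs, 2.40%, 3.74% and 19.5% in Selp-low, and 0.363%, 3.10% and 53.4% in Selp-high paHSCs. The IgG gene that led differed between these libraries. It was Ighg2c in yHSC 1 (13.9%) and Selp-high paHSC 3 (34.1%, with Ighg1 at 19.2%), Ighg1 in Selp-low paHSC 3 (11.3%, with Ighg2b at 7.93%), and Ighg2b in Selp-low paHSC 2 (2.76%) and Selp-high paHSC 2 (3.04%).

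The kappa share, Igkc over the sum of Igkc and Iglc1, was 62.1%, 94.5% and 98.9% in yHSCs, 97.7%, 67.3% and 91.2% in Selp-low paHSCs and 99.1%, 78.6% and 99.8% in Selp-high paHSCs. By Iglc1 alone, lambda counts were highest for their light chain counts in yHSC 1, Selp-low paHSC 2 and Selp-high paHSC 2. With Iglc2, Iglc3 and Iglc4 counted too, the kappa share was 60.5%, 71.6% and 94.5% in yHSCs, 89.9%, 65.7% and 89.98% in Selp-low and 97.4%, 77.7% and 99.1% in Selp-high paHSCs. The change was widest in yHSC 2, where Iglc2 had 755 and Iglc3 339 counts against 193 for Iglc1, so that its lambda share (28.4%) exceeded that of Selp-high paHSC 2 (22.3%). In Selp-low paHSC 1, Iglc2 and Iglc3 stood at 1148 and 821 CPM per kilobase against 621 for Iglc1.

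Group differences in make-up were tested for the unswitched (IgM and IgD), IgG, IgA and kappa shares in 3 comparisons, by 2-sided exact permutation tests with Benjamini-Hochberg adjustment over all 12. With 3 libraries against 3 the smallest p such a test can give is 0.1. IgA was 10.8 points higher in Selp-low paHSCs than in yHSCs (11.4% ± 13.0 against 0.558% ± 0.750, SD, n = 3 each), higher in 3 of 3 libraries, with an exact p of 0.1 and an adjusted p of 0.6. IgA in Selp-high paHSCs (18.2% ± 16.4) was 17.6 points above yHSCs (exact p = 0.2, adjusted p = 0.6). The unswitched share was 94.3% ± 8.91 in yHSCs, 80.0% ± 11.5 in Selp-low and 62.9% ± 36.9 in Selp-high paHSCs, with an exact p of 0.2 for each fraction against yHSCs. Between Selp-high and Selp-low paHSCs the exact p was 0.6 for the unswitched share, 0.9 for IgG, 0.7 for IgA and 0.5 for kappa. With all lambda genes counted, the kappa share of Selp-high paHSCs was 15.9 points above that of yHSCs (exact p = 0.2), against 7.34 points with Iglc1 alone (exact p = 0.5). The libraries of the groups overlapped in 11 of the 12 differences, and the design could not bring any of them under 0.05.

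**Figure D3:**
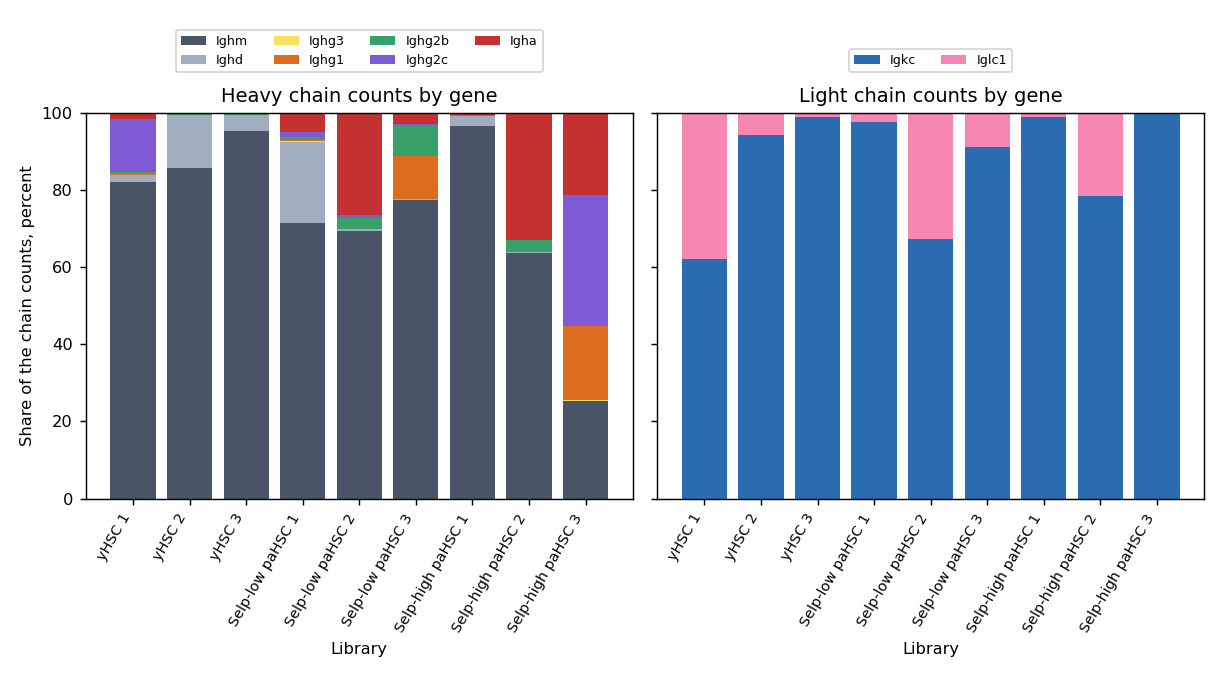
Stacked bars of the share of heavy chain counts (left) and of light chain counts (right) that each gene takes in each library, in percent from 0 to 100. Selp-low paHSC 2 and Selp-high paHSC 2 have similar heavy chain bars (IgM 69.4% and 63.6%, IgA 26.3% and 32.9%), while Selp-high paHSC 3 is the library with the lowest IgM share, 25.4%.

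Of the 3 pairs of paHSC libraries with the same number, the pair numbered 2 was alike in heavy chain make-up. As the share of heavy chain counts that would have to change gene, the distance between Selp-low paHSC 2 and Selp-high paHSC 2 was 6.88 points, the second smallest of the 36 pairs of libraries. The smallest, 1.82 points, was between yHSC 3 and Selp-high paHSC 1, which were both nearly all IgM. The pair numbered 1 stood 25.1 points apart and the pair numbered 3 60.1 points apart. The 2 libraries numbered 2 also shared their leading variable genes. Ighv10-3 took 60.7% of heavy chain variable counts in Selp-low paHSC 2 and 28.9% in Selp-high paHSC 2, and Igkv8-27 took 55.6% and 26.0% of kappa variable counts. The leading heavy chain variable gene differed in the pair numbered 1 (Ighv1-26 at 6.21% and Ighv11-2 at 74.0%) and in the pair numbered 3 (Ighv1-39 at 34.2% and Ighv4-1 at 51.9%).

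Within equal numbers, the direction of the 10 genes between fractions turned. All 10 were higher in the Selp-low library of the pairs numbered 1 and 2, by 19.5-fold for Ighm, 14.3-fold for Igha and 30.8-fold for Jchain in the pair numbered 2. In the pair numbered 3, 8 of the 10 were higher in the Selp-high library, by 86.6-fold for Igha, 17.3-fold for Jchain and 8.56-fold for Igkc, and Ighg2b and Iglc1 were higher in the Selp-low library.

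Across all 6 paHSC libraries, the log2 fold change of Selp-high over Selp-low was -3.90 ± 2.02 (SE) for Ighm, -3.90 ± 1.92 for Igkc, -4.70 ± 2.71 for Jchain and -5.23 ± 3.28 for Iglc1. Ighg1 (2.57 ± 2.73) and Ighg2c (0.12 ± 2.75) had positive values. By edgeR's quasi-likelihood test with Benjamini-Hochberg adjustment over all genes tested, 0 of the 10 were called at an adjusted p of 0.05 or less and a log2 change of at least 1 in size, against 0.0% of all 20370 genes tested. An unadjusted p under 0.05 was found for 0 of the 10 and for 2555 of all genes tested. DESeq2 called 0 of the 4 members to which it gave an adjusted p and gave none to the other 6, against 2.4% of all genes. In 0 of the 10 did every Selp-high library lie below every Selp-low library, which held for 10.6% of all genes. Since these contrasts were known when the genes were chosen, nothing is read from these counts.

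Selp-low paHSC 2 set the direction of most of these values. Without it the log2 fold change of Selp-high over Selp-low became 0.75 for Ighm, 3.69 for Igha, 3.19 for Jchain, 2.33 for Iglc1, 1.49 for Ighg2b and 0.28 for Ighg3, and the median of the 10 moved from -3.90 to 1.91. Igkc (-0.49) and Ighd (-4.38) kept their sign. Without Selp-high paHSC 3, Ighg1 moved to -8.72 and Ighg2c to -8.41, and without Selp-high paHSC 2, Ighg2b moved to -9.88 and Iglc1 to -11.83. The labels do not pair the paHSC libraries, and a block for equal replicate numbers rests on correlations of residuals alone. These were 0.1775 to 0.303 for equal numbers, while Selp-high paHSC 1 and yHSC 2, of unlike number and age, reached 0.449. With that block Ighg1 was -6.08, Ighg2c -6.17 and Ighg2b -4.27. Ighg2b had an adjusted p of 0.041 by edgeR, so that 1 of the 10 was called, against 0.0442% of all genes with that block.

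**Figure D4:**
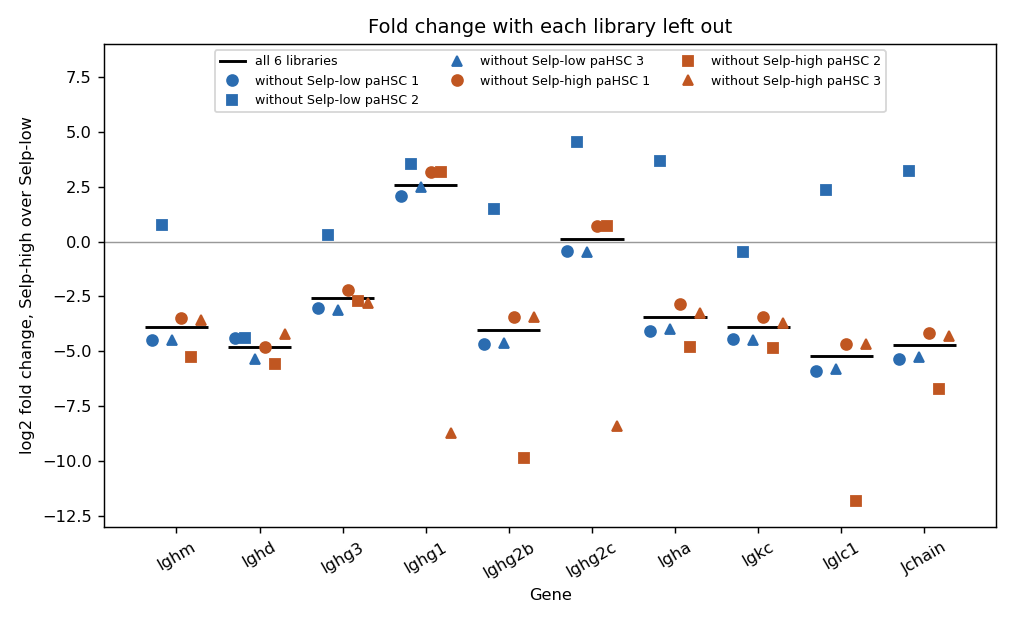
Log2 fold change of Selp-high over Selp-low paHSCs for each gene with all 6 libraries (black line) and after leaving out each library (points, coloured by the fraction of the library left out, shape for its number). The blue squares, without Selp-low paHSC 2, lie above 0 for 8 of the 10 genes, against 2 of 10 with all libraries.

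Against yHSCs the members were higher in paHSCs as a description. In Selp-high over yHSCs, 9 of the 10 had a positive log2 fold change, with a median of 5.17 against -0.03 over all genes, from 3.02 ± 0.815 for Ighm and 4.56 ± 0.862 for Igkc to 9.72 ± 2.39 for Igha. Ighd was at -0.08 ± 1.06. Selp-high paHSC 3 and 2 set the sign of some of these. Without library 3, Ighg1 was at -1.68 and Ighg2c at -3.10, and without library 2, Iglc1 was at -2.20. The edgeR test called 0 of the 10 (0.165% of all genes), with the lowest adjusted p at 0.143. It gave 7 an unadjusted p under 0.05, against 1519 of all 20017 genes tested. DESeq2 called Ighm, Ighg3, Igha, Igkc and Jchain among 6 with an adjusted p (3.32% of all genes). Without the filter on low counts edgeR called 8 of the 10, against 1.14% of all genes. All 3 Selp-high libraries lay above all yHSC libraries for Ighm, Ighg3, Igkc and Jchain (8.52% of all genes).

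In Selp-low over yHSCs all 9 members that passed the filter on low counts had a positive value, with a median of 8.52 against 0.08 over all genes, and Ighg3 did not pass it. The values ran from 4.795 ± 1.92 for Ighd to 13.22 ± 3.69 for Igha, and all 9 stayed positive without Selp-low paHSC 2. Without that library Igha was at 6.06, Igkc at 5.002, Ighg2b at 5.07, Ighm at 2.23, Iglc1 at 2.13, Jchain at 1.81 and Ighg2c at 0.86, and the median was 4.27. The edgeR test called 0 of the 9 (0.0% of all genes). It gave 8 an unadjusted p under 0.05, against 2306 of all 20437 genes tested. DESeq2 called Ighd, Ighg3, Ighg1 and Igkc, the 4 with an adjusted p (2.57% of all genes). Without the filter on low counts edgeR called 8 of the 10, against 0.836% of all genes. All 3 Selp-low libraries lay above all yHSC libraries for Ighg1, Ighg2b, Igha and Igkc (9.59% of all genes). Both comparisons share the yHSC libraries.

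The genes around the antibody were examined in 5 lists that hold 70 genes. The edgeR test called none of them in Selp-high over Selp-low, Selp-high over yHSCs or Selp-low over yHSCs. In the same order it called only 0.0%, 0.165% and 0.0% of all genes, so these lists are not set apart by that. An unadjusted p under 0.05 was given to 0 to 9, 0 to 9 and 3 to 14 genes of a list. Among all genes tested it was given to 2555 of 20370, 1519 of 20017 and 2306 of 20437. DESeq2 called 10 in Selp-high over Selp-low, all lower (2.4% of all genes were called). It called 4 in Selp-high over yHSCs (3.32% of all genes) and 17 in Selp-low over yHSCs (2.57% of all genes). The B lineage list of 18 surface and transcription genes divided the libraries otherwise than the members did. It summed to 8633 and 11649 CPM in Selp-low paHSC 1 and 2 and to 371 to 942 CPM in the other 7 libraries. Cd79a, part of the B cell receptor, averaged 2248 ± 2128 CPM (SD, n = 3) in Selp-low paHSCs, 92.7 ± 73.9 in Selp-high paHSCs and 54.7 ± 33.1 in yHSCs, and was at 8.73 CPM in Selp-low paHSC 3. Of the 18, edgeR gave 9 an unadjusted p under 0.05 in Selp-high over Selp-low, all 18 had a negative value with a median of -3.50, and DESeq2 called 9 lower. They included Ms4a1, Cd79a, Cd79b, Fcer2a, Cr2, Bank1, Cd37 and Ly6d. The same library pattern, high in Selp-low paHSC 1 and 2, was seen for Ighd.

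The plasma cell list of 20 genes, which holds regulators of antibody secretion and proteins of the endoplasmic reticulum that fold and export it, stood apart in a single library. It summed to 9903 CPM in Selp-low paHSC 2 and to 1313 to 2285 CPM in the other 8. In Selp-high over Selp-low all 20 had a negative log2 change (median -1.40). Against yHSCs 15 of 20 were positive in Selp-high (median 0.92) and all 20 in Selp-low paHSCs (median 2.41). By edgeR 1, 9 and 14 of the 20 had an unadjusted p under 0.05, against 2555 of 20370, 1519 of 20017 and 2306 of 20437 genes. Derl3, a factor of protein degradation at the endoplasmic reticulum, was at 342 CPM in Selp-low paHSC 2, 21.2 CPM in Selp-high paHSC 2 and at most 4.04 CPM elsewhere. Mzb1, a chaperone that assists IgM assembly, was at 74.4 CPM in Selp-low paHSC 2, 4.23 CPM in Selp-low paHSC 1 and 3.00 CPM in Selp-high paHSC 2, and at most 0.573 CPM in the other 6. Sdc1 (CD138), a plasma cell surface marker, was at 251 CPM in Selp-low paHSC 2, and the next highest values, 92.8, 49.0 and 27.6 CPM, were those of the yHSCs. Xbp1, the transcription factor of the secretory program, stood at 1463 CPM in Selp-low paHSC 2 and at 267 to 433 CPM in all others. The folding factors Txndc5 and Hsp90b1, next in level, reached 1578 and 889 CPM in their highest Selp-low library, against at most 325 and 460 CPM in Selp-high paHSCs and 148 and 198 CPM in yHSCs.

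Of the plasma cell list, only Fkbp11, Creld2, Eaf2 and Ssr4 stood higher in every paHSC library than in every yHSC library. Of all genes, 8.52% lay above yHSCs in every Selp-high library and 9.59% in every Selp-low library, and the share for both fractions at once was not counted. Fkbp11 and Creld2 are shown as examples picked after their values were seen. Fkbp11, an endoplasmic reticulum prolyl isomerase, was at 9.75 to 12.9 CPM in yHSCs, 24.6 to 68.2 CPM in Selp-low and 32.6 to 48.1 CPM in Selp-high paHSCs. Its adjusted p by edgeR was 0.106 in Selp-high over yHSCs, and DESeq2 called it higher in both fractions against yHSCs. Creld2, another protein of that compartment, was at 48.7 to 62.2 CPM in yHSCs and at 93.8 to 817 CPM in the 6 paHSC libraries, and DESeq2 called it higher in Selp-high paHSCs.

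The list of 10 surrogate light chain and recombination genes, which act earlier in the B lineage, summed to 39.8 to 253 CPM, with 5 of 10 positive in Selp-high over Selp-low and over yHSCs and 7 of 10 in Selp-low over yHSCs. Dntt, the terminal transferase that adds bases at V(D)J joints, was at 23.9 to 83.7 CPM in yHSCs, 2.96 to 9.37 CPM in Selp-low and 2.55 to 14.4 CPM in Selp-high paHSCs. It was thus lower in all 6 paHSC libraries, and the share of all genes for which that held was not counted. The log2 change of Dntt was -3.25 ± 0.607 in Selp-low and -3.21 ± 0.828 in Selp-high over yHSCs, with adjusted p of 0.332 and 0.296 by edgeR, and DESeq2 called it lower in both. Vpreb3 is a chaperone of the surrogate and conventional light chains. It ran from 3.97 to 160 CPM in Selp-low paHSCs, 3.54 to 38.9 CPM in Selp-high paHSCs and 7.11 to 12.7 CPM in yHSCs. The 3 groups thus overlapped in Vpreb3. Xrcc4, a general DNA end-joining factor, was at 13.3 to 36.6 CPM over the 9 libraries.

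The 10 class switch and mutation genes summed to 271 to 544 CPM, and of the 9 tested 6 were positive in Selp-high over Selp-low, 1 in Selp-high over yHSCs and 3 in Selp-low over yHSCs, with none called by edgeR or DESeq2. Msh6 and Rif1, repair genes that all cells use, were among the most abundant of the list, at 52.2 ± 16.1 and 41.0 ± 4.02 CPM (SD, n = 3) in Selp-low, 78.6 ± 31.7 and 47.2 ± 5.87 CPM in Selp-high paHSCs and 98.0 ± 40.6 and 53.7 ± 8.32 CPM in yHSCs. Of the 12 antibody receptor and transport genes, 2 of 11 tested were positive in Selp-high over Selp-low, 6 of 10 in Selp-high over yHSCs and 10 of 12 in Selp-low over yHSCs. Fcer1g, Fcmr and Fcgr3 led them by level. Fcmr, the IgM receptor of B cells, was at 0.187 CPM in a Selp-low library and up to 723 CPM in another, against 10.4 to 36.2 CPM in Selp-high paHSCs. Fcgr2b, the inhibitory IgG receptor, was at 77.5 to 101 CPM in all Selp-low against 20.2 to 48.1 CPM in all Selp-high libraries. Such a separation, with every Selp-high library below every Selp-low library, held for 10.6% of all genes. Fcgr2b had a log2 change of -1.49 ± 0.361 and an adjusted p of 0.338 by edgeR.

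**Figure D5:**
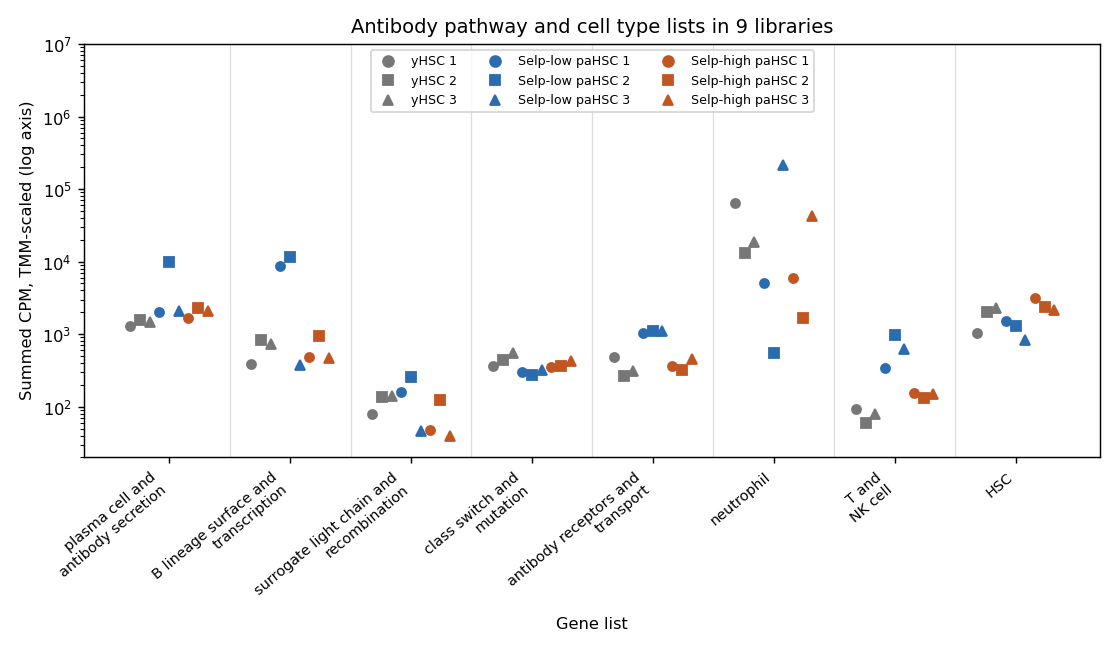
Summed level of the 5 antibody pathway lists and of the neutrophil, T and NK cell and HSC marker lists in the 9 libraries, in TMM-scaled CPM on a log axis (grey yHSCs, blue Selp-low, orange Selp-high paHSCs). The B lineage list is high in Selp-low paHSC 1 and 2, the plasma cell list in Selp-low paHSC 2 (9903 CPM), and the neutrophil list in Selp-low paHSC 3 (212759 CPM).

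Leaving out Selp-low paHSC 3, the library with the highest neutrophil sum, edgeR called 7 pathway genes lower in Selp-high than Selp-low paHSCs (0.223% of all genes were called) and 10 higher in Selp-low paHSCs than yHSCs (0.534% of all genes). Without the filter on low counts it called 1 pathway gene, Cd37, between the fractions (0.443% of all genes). The 7 were Cd79b, Cr2, Fcer2a, Fcmr, Fcrl1, Ly6d and Ms4a1. The 10 were Bank1, Blnk, Cd72, Cd79a, Cd79b, Cr2, Fcrla, Il7r, Ly6d and Ms4a1. Members called stayed at 0 in each comparison with any library left out. The summed level of T and NK cell markers was higher in the Selp-low fraction too, though not that of each marker in each library. The 10 markers summed to 345 to 968 CPM in Selp-low paHSCs, 133 to 154 CPM in Selp-high paHSCs and 59.9 to 93.7 CPM in yHSCs, with up to 3 of them at 0 in a paHSC library and none in yHSCs. Of the 9 tested in Selp-high over Selp-low, 7 had a negative log2 change and 2 a positive one. In Selp-low paHSCs Cd3g ran from 0.824 to 226 CPM and Trac from 0.375 to 171 CPM. Their lowest Selp-low values lay below all Selp-high libraries, which were at 0.930 and 2.14 CPM or more. The part of the T and NK cell markers, like that of the neutrophil markers, in the results above was not tested.

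The genes whose levels followed the antibody genes most closely over the 9 libraries were ranked by Pearson's r of log2 CPM among 13117 protein-coding genes outside the immunoglobulin loci with a mean of at least 1 CPM. For Igkc the 5 nearest were Krt222 (r = 0.970), Myo1e (0.967), Mzb1 (0.959), Ppm1j (0.958) and Eaf2 (0.956). For Jchain they were Tnfrsf17 (r = 0.950), Enpp1 (0.948), Cd160 (0.936), Tent5c (0.933) and Dnaja1 (0.930). Tnfrsf17, the plasma cell survival receptor BCMA, was at 56.9 CPM in Selp-low paHSC 2, 4.53 CPM in Selp-high paHSC 2 and at most 0.948 CPM in the other 7 libraries. Eaf2 was at 107 CPM in Selp-low paHSC 2 and at 1.08 to 9.31 CPM elsewhere. Dnaja1, a chaperone expressed throughout, spanned only 322 to 682 CPM. These correlations are over 9 libraries that share depth and composition and in which Selp-low paHSC 2 is an extreme, and they are given as a description.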

How the data were processed

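Total RNA of sorted HSCs was reverse transcribed and amplified with a kit for very low input. The authors trimmed reads with fastp, aligned them with HISAT2 2.2.1 (build mm39 in the submitters' processing notes) and deposited whole-number read counts per gene from featureCounts 2.0.6, with no normalization. The sources used here do not give the strand setting, the annotation release or the treatment of multi-mapping reads, so counts of similar constant genes and of overlapping genes carry that uncertainty. Amplification without molecular identifiers means that reads are not independent molecules, and intervals and floors cover counting error only. The file held 0 unused columns of per-sample values.

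Counts were analysed in R 4.3.3 with edgeR 4.0.16 (TMM, filterByExpr, quasi-likelihood test, legacy setting) for each pair of groups alone, and with DESeq2 1.42.0 as an alternative. Genes were called at an adjusted p up to 0.05 where the log2 fold change was at least 1 in size. A count of 0 was taken to allow 3 counts. Shares were computed in Python 3.11.15 with scipy 1.17.1 and tested by exact permutation. log2 CPM used a prior count of 2. Sequences came from GENCODE M21 transcripts, aligned with Biopython 1.88. The steps were tested on simulated data.

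The genes, lists and rules were chosen with earlier results of these data known. All 10 genes, the other constant genes, Selp as a check of the sort, the 3 most abundant genes of each pathway list and the 5 genes nearest to Igkc and to Jchain were to be named. Some genes that this rule picks are not reported here. Further list members were named after their values were seen, as examples or because DESeq2 or a left-out library changed their call. The lists were 5 for the antibody pathway (70 genes) and 6 of cell type markers (HSC, with Ly6a and Kit among the most abundant; neutrophil, led by Ngp, S100a9 and S100a8; T and NK cell, led by Nkg7, Cd3g and Trac; red cell; monocyte and macrophage; plasmacytoid dendritic cell). Of the markers, edgeR called Slamf1 (HSC) and Klrb1c (T and NK cell), both higher in Selp-high paHSCs than yHSCs. The other 4 lists had 0 genes called by edgeR, with 0 to 4 at an unadjusted p under 0.05 in a comparison, and DESeq2 called Csf1r and Mpo among them. Equal replicate numbers were taken to pair libraries where every same-number correlation of residuals was over 0.1. For Selp-high and Selp-low paHSCs these were 0.1775, 0.2765 and 0.303, and with yHSCs they lay between -0.417 and 0.0917. Between unlike numbers, Selp-high paHSC 1 and yHSC 2 reached 0.449, and Selp-high paHSC 2 and yHSC 1 reached 0.407. Neither the labels nor the study state a pairing, and the study calls its samples independent. Alternatives covered normalization, the filter on low counts, the test, the samples in the fit, a replicate block, gene length, the genes counted in a share and each library left out. Leaving out both paHSC libraries numbered 2 was added after the data were seen.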

Additional observations from a re-analysis of the deposited data

Results flagged for a closer look

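Immunoglobulin rows outside the 10 genes also carried signal in paHSCs above the highest yHSC library. Iglc2 reached 5511 CPM and Iglc3 1460 CPM in Selp-low paHSC 2, against 17.5 and 7.86 CPM at most in yHSCs, each above that level in 3 of 6 paHSC libraries. Iglc4 reached 13.9 CPM in the same library (0.324 CPM at most in yHSCs, 2 of 6 above). Ighe, the IgE constant gene, reached 8.26 CPM in Selp-low paHSC 1 and 8.10 CPM in Selp-low paHSC 2, against 0.191 CPM at most in yHSCs, with 3 of 6 above. Summed variable genes were highest in Selp-low paHSC 2 for each locus. They stood at 46479 CPM for the heavy chain (yHSCs at most 140 CPM, 5 of 6 above), 125182 CPM for kappa (at most 229.6 CPM, 6 of 6 above) and 60232 CPM for lambda (at most 87.9 CPM, 3 of 6 above). Groups of 3 libraries are too small for the test of a single library that stands apart.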

How the results depend on the processing

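Counts of calls depended on the test and the filter. Members called rose from 0 to 8 in both comparisons with yHSCs without the filter on low counts, where 1.14% (Selp-high) and 0.836% (Selp-low) of all genes were called. With DESeq2 they rose to 5 (Selp-high) and 4 (Selp-low), against 3.32% and 2.57% of all genes. Between the fractions they rose to 1 (Ighg2b) with the replicate block, against 0.0442% of all genes. The block called 0 in the comparisons with yHSCs, where equal numbers did not meet the rule for pairs. Pathway genes called are given for Selp-high over Selp-low, Selp-high over yHSCs and Selp-low over yHSCs, in that order. They were 1, 4 and 15 without the filter, against 0.443%, 1.14% and 0.836% of all genes. With DESeq2 they were 10, 4 and 17, against 2.4%, 3.32% and 2.57% of all genes. With each library left out they were 0 to 7, 0 and 0 to 10. The block reversed Ighg1 (-6.08) and Ighg2c (-6.17) between the fractions, kept the sign of the other 8 and changed no other call there. In the shares of make-up, the block, gene length and all constant genes kept every direction, but with all constant genes the kappa difference went from 7.11 to 9.56 points for Selp-high over Selp-low, from 7.34 to 15.9 for Selp-high over yHSCs and from 0.235 to 6.30 for Selp-low over yHSCs. The cause of these changes was not tested. Scaling by library totals alone moved the median of all genes from -0.11 to 0.37 in Selp-high over Selp-low and from 0.08 to -0.47 in Selp-low over yHSCs, and turned the sign of 0 members. With 1 library left out in turn, the summed percent of counts, as a difference of mean log2 values, ran from -2.99 to 1.34 (all libraries -0.79) for Selp-high over Selp-low, 2.75 to 4.52 for Selp-high and 2.26 to 6.58 for Selp-low over yHSCs, and was 0.49 without both libraries numbered 2. In percentage points and the same order of comparisons, the ranges were -0.57 to 15.7, 10.3 to 26.5 and 3.39 to 15.1 for IgA, -6.81 to 19.7, -3.40 to 23.1 and -2.06 to 8.13 for IgG, -35.3 to 1.54, -49.6 to -12.7 and -20.5 to -9.21 for the unswitched share, and -1.93 to 14.1, -4.17 to 14.3 and -11.3 to 9.27 for kappa. Log2 fold changes of Selp-high over Selp-low ran from -5.26 to 0.75 for Ighm, -3.13 to 0.28 for Ighg3, -8.72 to 3.54 for Ighg1, -9.88 to 1.49 for Ighg2b, -8.41 to 4.54 for Ighg2c, -4.79 to 3.69 for Igha, -11.83 to 2.33 for Iglc1 and -6.72 to 3.19 for Jchain. Over yHSCs, those of Selp-high ran from -0.91 to 0.49 for Ighd, -1.68 to 10.60 for Ighg1, -3.10 to 9.91 for Ighg2c and -2.20 to 7.64 for Iglc1. With 3 libraries a group, the exact tests could not pass 0.05. Counting error of the shares was small, but whether the number of starting molecules or cells limited them was not tested.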
